A study of Homo sapiens with 36 samples.

Results

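Respiratory complex I, the NADH:ubiquinone oxidoreductase of the inner mitochondrial membrane, was followed in HepG2-IGF1R-KO cells through 61 genes. The members were chosen by name: 48 protein-coding nuclear genes whose symbol starts with NDUFA, NDUFB, NDUFC, NDUFS, NDUFV or NDUFAF, and the 13 mRNAs of the mitochondrial genome, of 57771 genes in the count table. The nuclear members comprised 7 core subunits, 9 accessory subunits of the matrix arm, 20 of the membrane arm, the acyl carrier NDUFAB1, the pair NDUFA4 and NDUFA4L2, 8 assembly factors of the NDUFAF series and 1 readthrough gene, NDUFC2-KCTD14. The readthrough gene did not pass the filter on low counts, so 47 nuclear and 13 mitochondrial members, 60 in all, were tested.

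HepG2 is an established human hepatoma line, and every group here consists of a derivative with a knockout of IGF1R, which encodes the IGF-1 receptor. Poly-A RNA was sequenced in 36 libraries, 9 in each of 4 groups, and the titles give 72 h for every group. Cells in normal medium had no stimulus (untreated) or human insulin at 3 nM over 18 h. The remaining groups were the same pair in an insulin-resistant medium. That medium contained glucose at 20 mM, human insulin at 1 nM, and oleic, linoleic and palmitic acid at 0.5 mM. The series asks how insulin acts in each medium. The labels call the 9 libraries of a group biological replicates and do not say whether the knockout line is 1 clone, whether replicates came from separate cultures or whether the insulin of the medium was removed, so p-values measure the spread between these libraries, part of which may be technical.

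Complex I takes electrons from NADH, passes them along flavin and iron-sulfur centres in its matrix arm to ubiquinone, and pumps protons through its membrane arm. Its catalytic core is encoded in both genomes: the MT-ND genes give the membrane-embedded pumping subunits, and nuclear genes give the redox subunits, the accessory subunits and the assembly factors that put the modules together without staying in the enzyme. The other mitochondrial mRNAs encode cytochrome b of complex III (MT-CYB), subunits of cytochrome c oxidase (MT-CO1, MT-CO2, MT-CO3) and of ATP synthase (MT-ATP6, MT-ATP8), and all are cut from long polycistronic transcripts.

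Before any comparison, the libraries were set against cell type markers. All 20 hepatocyte markers had counts, and they summed to 12533 to 39243 CPM (counts scaled to a common library total) per library. In 30 libraries 18 stromal markers, such as collagens, summed to 38335 to 121030 CPM, more than the hepatocyte markers, although the label gives hepatocyte as the only cell type. The other 6 libraries were replicates 4, 5 and 6 with insulin in normal medium and replicates 1, 2 and 3 of the untreated group in resistant medium. Their stromal sum was 8613 to 12622 CPM, the median marker was under 1 CPM and 9 of the 18 markers exceeded 1 CPM. Endothelial markers summed to at most 4.68 CPM. The 6 leukocyte markers summed to 732 to 2443 CPM in the 6 libraries and 343 to 1542 CPM in the others. Only 2 of these 6 markers exceeded a mean of 1 CPM in either set, so the sums rest on them. The 5 cholangiocyte markers summed to 929 to 1712 and 728 to 1492 CPM, with 3 and 4 of them over a mean of 1 CPM. Values without the 6 libraries low in stromal markers are therefore given beside the comparisons. In bulk RNA, fewer cells of a type and less RNA per cell cannot be told apart.

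Annotated transcripts of neighbouring mitochondrial genes share bases, which matters for what their counts can separate. The shared stretches are shown here from the GENCODE release 29 transcripts (GRCh38), plus strand, with the bases common to both in capitals.
MT-ATP8 end and MT-ATP6 start, chrM:8512-8587: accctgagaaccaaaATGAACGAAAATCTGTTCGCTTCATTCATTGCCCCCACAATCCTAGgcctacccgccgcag
MT-ND4L end and MT-ND4 start, chrM:10745-10781: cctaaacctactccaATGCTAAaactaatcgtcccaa
The 46 shared bases are 22.2% of the annotated MT-ATP8 transcript and 6.8% of that of MT-ATP6, and the 7 shared bases are 2.4% of MT-ND4L. The annotation gives each gene a transcript of its own. A difference in counts within such a pair is therefore no measure of separate mRNA molecules. Counts of MT-ATP8, the shortest member, and of MT-ND4L are therefore uncertain where the authors' counting had to split reads.

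The mitochondrial mRNAs were the most abundant members. Together they took 1.17% to 4.25% of all counts in a library, with a median of 2.19%, and the 48 nuclear genes took 0.157% to 0.258%. Per kilobase of mRNA, MT-CO1, the catalytic subunit of cytochrome c oxidase, was highest at a mean of 5164 CPM per kb. MT-ND4 followed at 2303 CPM per kb, then MT-CO3 at 2301 and MT-CO2 at 2300.6 CPM per kb, and these 3 levels lay within each other's spread over libraries. MT-ND1 (1876), MT-ND2 (1708), MT-ND5 (875) and MT-ND3 (874 CPM per kb), the other proton-arm subunits, were lower. The lowest were MT-ND6 at 590 CPM per kb, the one mRNA read from the opposite strand (chrM:14149-14673), and MT-ATP8 at 341 CPM per kb. MT-ATP8 and MT-ND4L (746 CPM per kb) overlap MT-ATP6 (2017 CPM per kb) and MT-ND4 in the annotation. Levels within these pairs depend on how reads were assigned. The nuclear member with the highest level per kilobase, NDUFC2 of the membrane arm, had 197 CPM per kb. The lowest nuclear member tested, NDUFA4L2, a paralog of NDUFA4 known as a hypoxia-induced gene, had 1.57 CPM per kb.

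**Figure D1:**
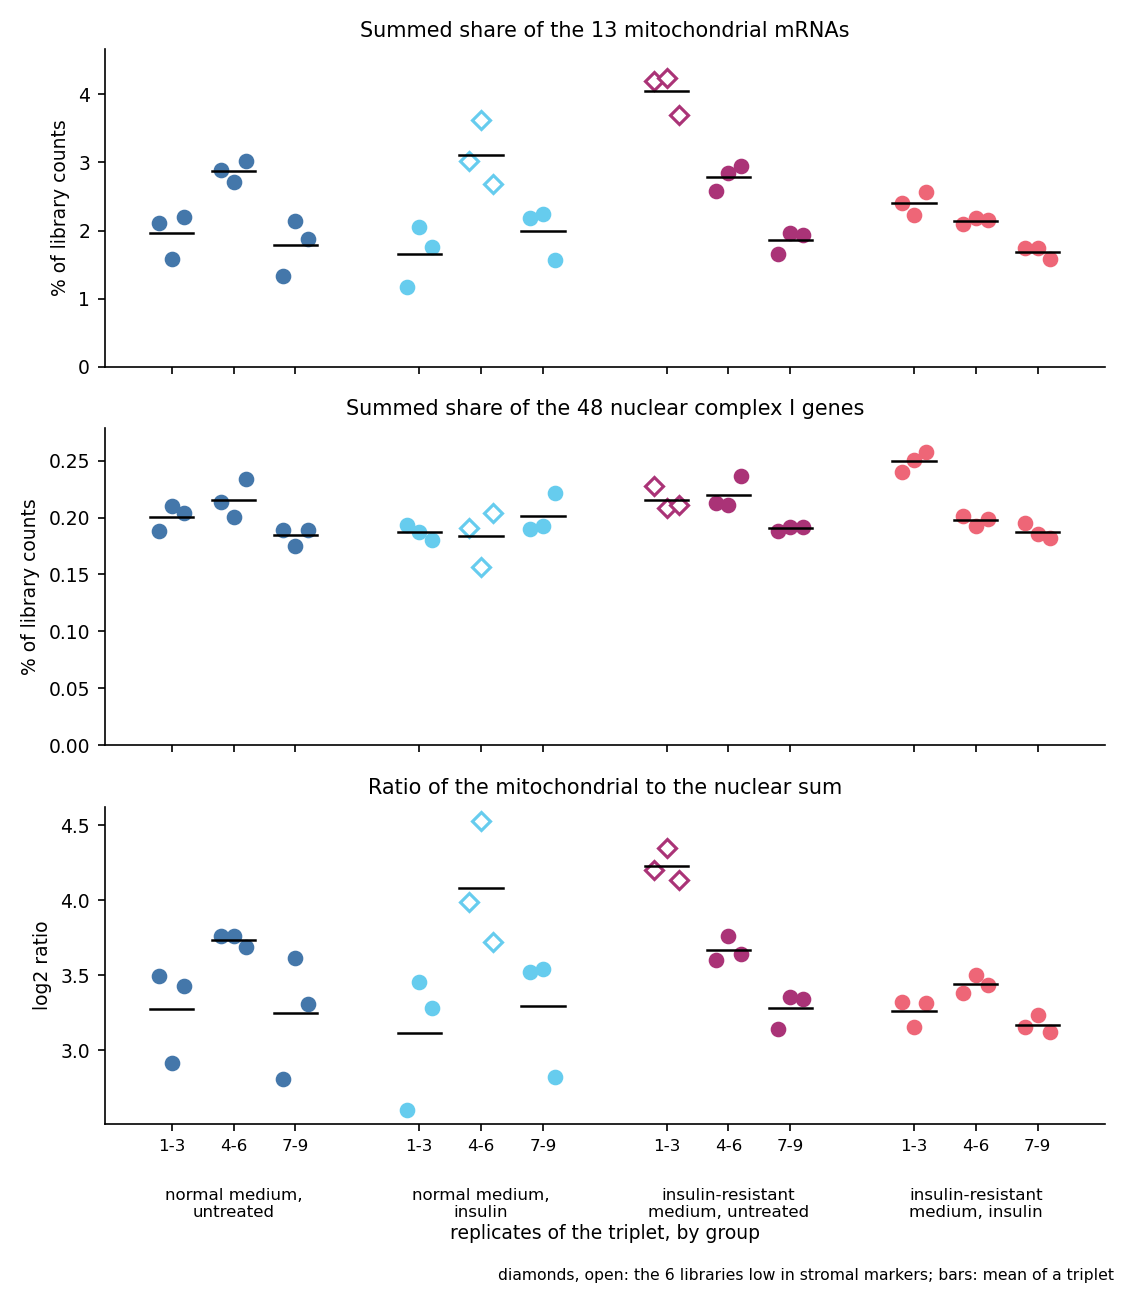
Summed share of the 13 mitochondrial mRNAs and of the 48 nuclear members in percent of library counts, and the log2 ratio of both sums, for each of 36 libraries (points) by group and triplet, with triplet means as bars. The 6 libraries low in stromal markers (open diamonds) hold mitochondrial shares of 2.69% to 4.25%, and the other 30 hold 1.17% to 3.02%.

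The ratio of mitochondrial to nuclear counts varied between triplets as well as between groups. On the log2 scale it ran from 2.60 to 4.53, and the group means ± SD (n = 9 each) were 3.42 ± 0.35 in untreated cells and 3.50 ± 0.58 with insulin in normal medium. In insulin-resistant medium they were 3.72 ± 0.42 and 3.29 ± 0.13. Consecutive replicate numbers (1 to 3, then 4 to 6, then 7 to 9) formed triplets whose means lay between 3.11 and 4.23. The SD of the triplet means, taken over all groups together, was 0.37, and the SD within triplets was 0.27. The 6 libraries low in stromal markers had ratios of 3.72 to 4.53, and the other 30 had 2.60 to 3.76. Without those 6, the means were 3.20 ± 0.40 with insulin in normal medium and 3.47 ± 0.23 in the untreated resistant-medium group (SD, n = 6 each).

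Set beside the pooled SD, no group difference of the ratio stood clear of the spread in normal medium, where insulin minus untreated was 0.08 against a pooled SD of 0.48, and -0.22 without the 6 libraries, the opposite direction. In insulin-resistant medium the same difference was -0.43 against a pooled SD of 0.31, and it was -0.18 without the 6 libraries. The media differed by 0.31 in untreated cells against 0.39, and by 0.05 without the 6. The insulin difference in resistant minus normal medium was -0.51 with all libraries and 0.03 without the 6. These are differences of plain group means with no batch term. Insulin in insulin-resistant medium had no library in the 24 May batch. The untreated libraries of that medium in that batch, replicates 4 to 6, had ratios of 3.60, 3.76 and 3.64. The part of the difference owed to batch was not tested. The ratios are of sums over chosen members and carry no test.

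Mitochondrial mRNAs and membrane-arm subunits each varied together from library to library, and core subunits and assembly factors did so less. Over the 36 libraries, which share composition and depth effects, the median correlation of log2 CPM between members was 0.87 over the 78 pairs of mitochondrial mRNAs, 0.84 over the 190 pairs of membrane-arm subunits and 0.68 over the 36 pairs within the matrix arm. It was 0.12 among the core subunits and 0.19 among the assembly factors, and -0.31 over the 611 pairs of a mitochondrial with a nuclear member. In the 30 libraries left without the 6, these medians were 0.86, 0.75, 0.53, 0.34 and 0.25, and the one between mitochondrial and nuclear members was 0.01. The median SD of log2 CPM was 0.14 for core subunits, 0.21 for the matrix arm, 0.25 for assembly factors, 0.29 for the membrane arm and 0.38 for the mitochondrial mRNAs of complex I. Without the 6 libraries it was 0.10, 0.15, 0.16, 0.20 and 0.27 in the same sequence. NDUFV1, which carries the flavin that accepts electrons from NADH, had the smallest SD of all members at 0.096, with 82.1, 87.5 and 100.2 CPM as the lowest, median and highest in untreated cells in normal medium. NDUFA4L2 had the largest at 0.81, and its level ran from 0.408 to 3.95 CPM.

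**Figure D2:**
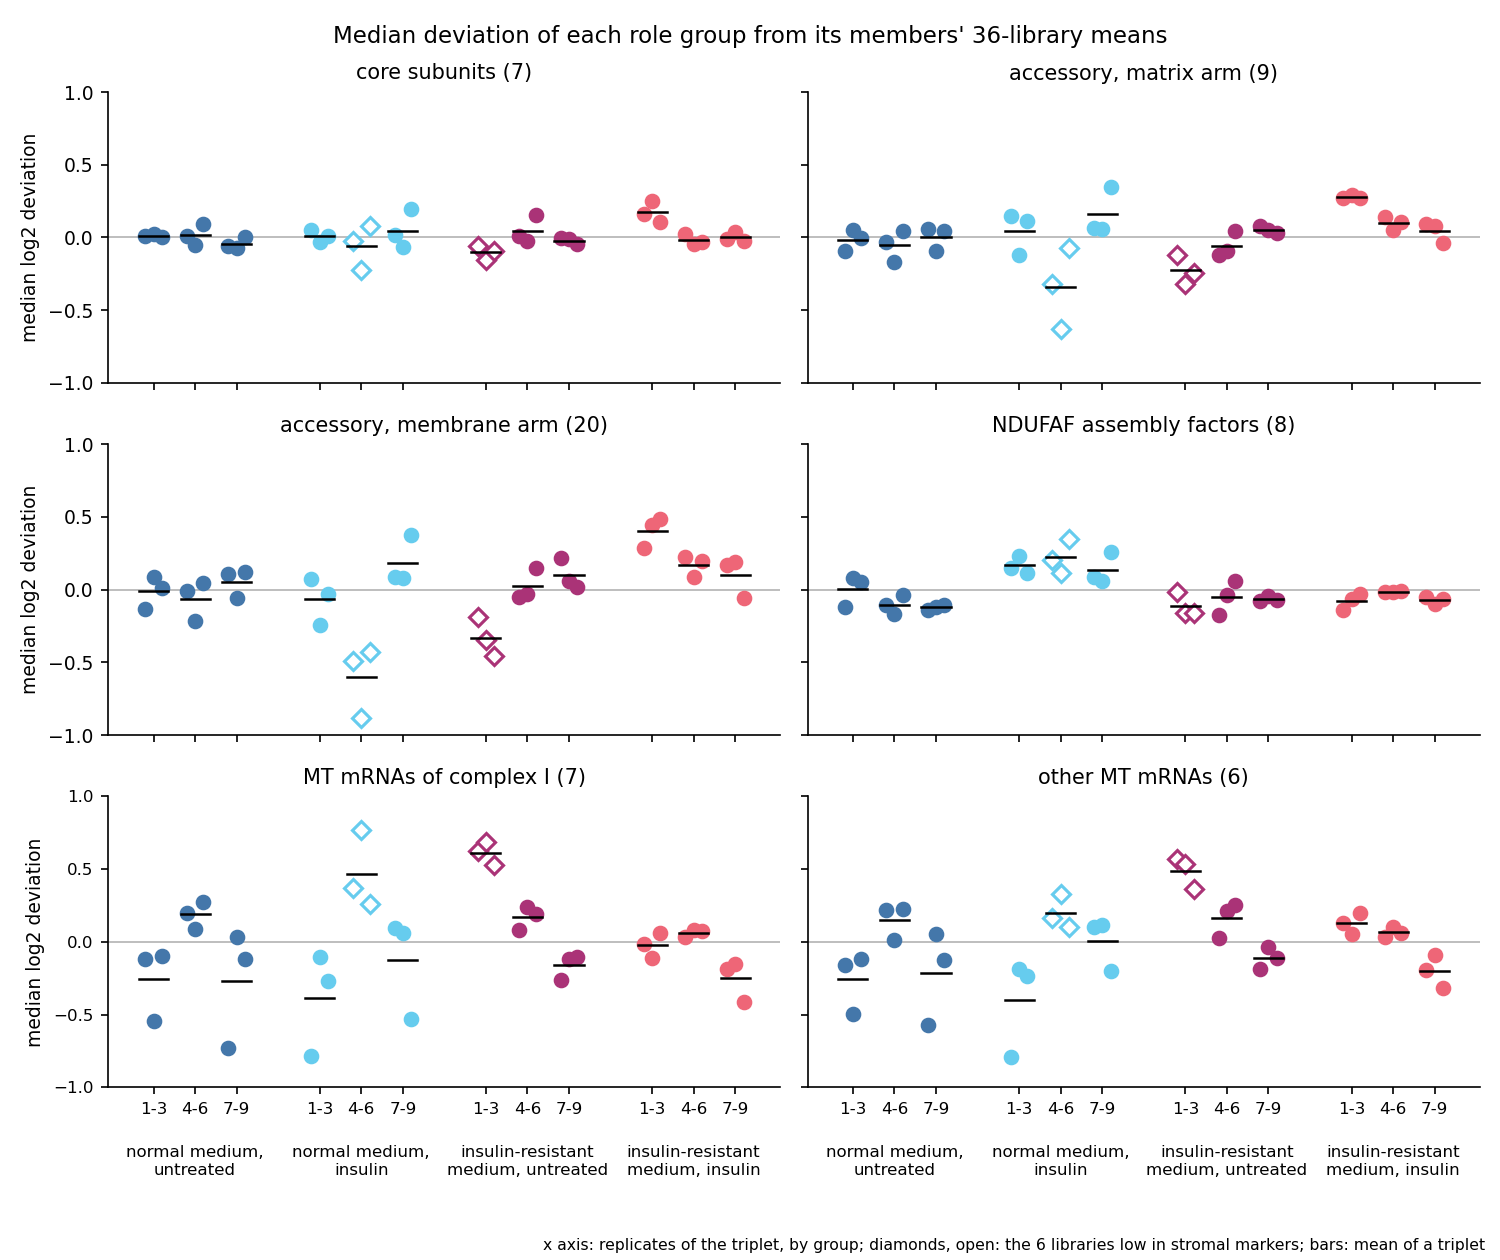
Median deviation of the members of a role from their 36-library means (log2 CPM, y axis) in each library, by group and triplet, with triplet means as bars; open diamonds mark the 6 libraries low in stromal markers. In those 6 the membrane-arm median lies between -0.88 and -0.19 and the mitochondrial complex I median between 0.26 and 0.77.

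Membrane-arm and mitochondrial members stood apart in opposite directions in the libraries low in stromal markers. The median membrane-arm deviation ran from -0.88 to -0.19 over the 6, against -0.24 to 0.48 over the other 30. The mitochondrial complex I mRNAs had 0.26 to 0.77 in the 6 and -0.79 to 0.28 in the 30. Core subunits deviated least, with -0.23 to 0.08 against -0.08 to 0.25. One further triplet stood out within its group: in replicates 1 to 3 of insulin in insulin-resistant medium the nuclear sum was 0.240% to 0.258% of counts and the membrane-arm deviation averaged 0.41, against 0.17 and 0.10 in the other triplets of that group. Most libraries low in stromal markers were also shallow. Their totals were 28.3M, 26.6M and 28.9M counts in untreated resistant-medium replicates 1 to 3. In normal-medium insulin replicates 4 to 6 they were 66.9M, 38.1M and 30.6M. The lowest total among the other 30 was 56.4M. The share of these shifts owed to the stromal content or to depth was not tested.

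In normal medium, insulin was followed by higher mRNA levels of some complex I assembly factors, led by NDUFAF4 and NDUFAF5, with few changes among the subunits. Of 47 nuclear members, 10 were higher and 1 was lower (edgeR quasi-likelihood test, Benjamini-Hochberg adjusted p under 0.05 over 17983 genes), where 24.9% of all genes tested were higher and 10.2% lower (35.2% in either direction). By role, 5 of 8 assembly factors were higher, as were 2 of 7 core subunits, 2 of 20 membrane-arm subunits and NDUFAB1, while the matrix arm had none higher and 1 of 9 lower. The nuclear members had a median log2 change of -0.03 beside 0.03 over all genes. With DESeq2 size factors, or with averaged TMM factors (each library serving as reference in turn), the split was 4 higher and 4 lower. The higher were NDUFAF4, NDUFAF5, NDUFAF7 and NDUFS1, and NDUFA2, NDUFB3 and NDUFA8 were among the lower. The median of all genes was then -0.04, and the shares of all genes called are not given here. Without the 6 libraries the split was 4 higher and 3 lower, where 15.4% of genes were higher and 18.1% lower.

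NDUFAF4, an early factor in the assembly of the membrane-anchored Q module, had the largest rise. Its lowest, median and highest levels were 7.97, 11.3 and 14.7 CPM in untreated cells and 12.9, 17.7 and 20.8 CPM with insulin. The upper untreated libraries overlapped the lowest insulin libraries, and all 3 triplets with insulin had means (17.7, 19.0 and 14.3 CPM) above every untreated triplet mean (13.2, 8.83 and 10.9 CPM). The rise was 0.63 ± 0.08 (log2 fold change ± SE, edgeR adjusted p = 2.37e-07), and 0.43 without the 6 libraries (edgeR adjusted p = 0.00107). It passed the threshold in each of 36 fits that left out 1 library, which keep the other libraries of its triplet. With each triplet summed to 1 sample the rise was 0.50 and missed the threshold (edgeR adjusted p = 0.108). Within batches it was 0.34 (22 April), 0.44 (11 April) and 1.00 (24 May), with an edgeR adjusted p of 0.172, 0.176 and 0.00157.

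NDUFAF5, a hydroxylase that modifies NDUFS7 during assembly, was at 12.5, 12.97 and 14.7 CPM in untreated cells and 15.1, 16.6 and 25.3 CPM with insulin. The groups did not overlap, and the highest values were those of replicates 4 to 6, which are low in stromal markers. The rise was 0.45 ± 0.09 (edgeR adjusted p = 9.19e-05), and 0.17 without the 6 libraries (edgeR adjusted p = 0.0224). NDUFAF7, a methyltransferase that acts in complex I assembly, had 12.5, 14.8 and 17.2 CPM untreated and 15.03, 17.6 and 26.64 CPM with insulin. The groups overlapped between 15.03 and 17.2 CPM. Its rise was 0.43 ± 0.10 (edgeR adjusted p = 0.000925), and without the 6 libraries it was 0.14 and missed the threshold (edgeR adjusted p = 0.0776). In the 6 libraries NDUFAF7 lay at 20.7 to 26.64 CPM, above all of the other 30 (12.5 to 20.4 CPM). NDUFAF2 (0.27, edgeR adjusted p = 0.015) and NDUFAF3 (0.23, edgeR adjusted p = 0.0229), which act late and early in assembly, also rose, and without the 6 libraries NDUFAF3 kept its call (0.20, edgeR adjusted p = 0.00398) and NDUFAF2 lost it (0.19, edgeR adjusted p = 0.136).

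NDUFAF7 was not among the members in which a promoter motif was found. For NDUFAF4, NDUFAF5 and NDUFS1, promoters are shown as 30-base windows around motifs found in them. The windows are from the RefSeq table (GRCh38.p14), 5′ to 3′ on the gene's strand with the motif in capitals.
NDUFAF4, chr6:96898020-96898049, minus strand: gccacctcccgCCGGAAGcggccctcgtgg
NDUFAF4, chr6:96897867-96897896, minus strand: ccctcacttgtGCGCATGctccgggtgtcc
NDUFAF5, chr20:13785013-13785042, plus strand: aagccgcgctgGCGCATGcgcacaaaaagc
NDUFAF5, chr20:13784890-13784919, plus strand: cctaccaagcctCACGTGgggctcacaccc
NDUFS1, chr2:206159583-206159612, minus strand: ggctggggccaCTTCCGGcggaactgcggg
A promoter, 250 bases before to 50 after the start, was found for 40 of the 48 nuclear members, and 4 motifs were searched on both strands. The NRF1 core GCGCATG was in 9 of the 40 (22.5%) beside 5.3% of 27305 genes, and in NDUFAF5 its matches on both strands overlap. The ETS motif CCGGAAG was in 7 (17.5%) beside 12.2%. The YY1 core AAGATGG was in 10 of the 40 beside 7.1% of genes, and the E-box CACGTG in 4 (10.0%) beside 8.8%. The motifs were chosen after values had been seen, and both cores replaced 10-base forms searched first, which were in 7 of the 40 beside 7.0% of genes (NRF1) and in 6 beside 1.5% (YY1). A match is a description of these letters and no measure of binding.

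NDUFS1, the largest iron-sulfur subunit of the matrix arm, was the core subunit with the lowest adjusted p. It stood at 134, 137 and 145 CPM untreated and 138, 161 and 192 CPM with insulin, with the top of the insulin range in replicates 4 to 6. The rise of 0.26 ± 0.07 (edgeR adjusted p = 0.00174) came to 0.05 without the 6 libraries. NDUFV2, an iron-sulfur subunit beside the flavin site, rose by 0.21 (edgeR adjusted p = 0.0136, 0.11 without the 6). NDUFB9 rose by 0.21 (edgeR adjusted p = 0.00444, 0.06 without the 6), NDUFAB1 by 0.22 (edgeR adjusted p = 0.016, 0.03 without the 6) and NDUFA10 by 0.14 (edgeR adjusted p = 0.0188, -0.04 without the 6). NDUFS1, NDUFB9, NDUFV2, NDUFAF2, NDUFAB1 and NDUFA10 each kept the call in 8 of the 36 fits that left out 1 library and NDUFAF3 in 7, whereas NDUFAF5 kept it in 36 and NDUFAF7 in 33.

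The single member that fell was NDUFA2, a small accessory subunit of the matrix arm. It was at 20.0, 24.1 and 29.6 CPM untreated and 7.63, 18.7 and 28.7 CPM with insulin. The ranges overlapped, and the 3 insulin libraries of replicates 4 to 6, with a mean of 11.6 CPM, lay below every untreated library. NDUFA2 fell by 0.43 on the log2 scale (SE 0.15, edgeR adjusted p = 0.0275), and by 0.31 without the 6 libraries (edgeR adjusted p = 0.045). It kept the call in all 36 fits that left out 1 library, and missed the threshold with triplets summed (edgeR adjusted p = 0.216). Without the 6 libraries NDUFA8 (-0.17, edgeR adjusted p = 0.0308) was also lower, and NDUFA4L2 was higher (0.49, edgeR adjusted p = 0.00821).

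Other genes of the same pathway had calls in both directions with insulin in normal medium. Over all genes, 24.9% were higher and 10.2% lower, and 15.4% and 18.1% without the 6 libraries. The shares of all genes with DESeq2 are not given here. Of 13 further complex I assembly factors outside the NDUFAF series, 4 were higher and 2 lower with insulin in normal medium, and without the 6 libraries 0 were higher by edgeR and 3 lower, with 4 at an unadjusted p under 0.05. DMAC1, a factor of the distal membrane arm, fell by 0.34 (edgeR adjusted p = 0.00153) and had -0.36 without the 6 libraries. ACAD9, an acyl-CoA dehydrogenase relative that acts in assembly, rose by 0.21 (edgeR adjusted p = 0.00205) and had 0.13 with no call without the 6. Of 47 nuclear genes of complexes II to V tested, 4 were higher and 3 lower, against 1 and 8 with DESeq2, and without the 6 libraries 0 were higher and 4 lower by edgeR, with 7 at an unadjusted p under 0.05 in either direction. UQCR10 of complex III (-0.40, edgeR adjusted p = 0.000474) and ATP5IF1, the inhibitor of ATP synthase (-0.40, edgeR adjusted p = 0.000384), fell, and both had about the same change without the 6 libraries (-0.43 and -0.40).

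None of the 13 mitochondrial mRNAs passed the edgeR test in normal medium, at an unadjusted p under 0.05 the count was also 0, and DESeq2 called 0. Over all genes, 7553 of 17983 reached that unadjusted p and 9549 lay above 0. All 13 mitochondrial mRNAs lay above 0, from 0.02 for MT-CO3 to 0.32 for MT-ND4L, with a median of 0.14. These signs depended on single libraries. All but MT-ATP8 and MT-ND4L fell below 0 in at least 1 of 36 fits that left out 1 library. MT-CO1, for example, ran from -0.10 to 0.20 over those fits, and MT-ATP6 from -0.15 to 0.10. The direction turned without the 6 libraries: 1 of 13 lay above 0, with a median of -0.17, and edgeR again called 0. MT-ND1, a subunit at the base of the membrane arm, had 888, 1602 and 2213 CPM untreated and 942, 1717 and 3268 CPM with insulin, ranges that overlapped from 942 to 2213 CPM (0.27 ± 0.19, and -0.13 without the 6 libraries). MT-CO1 had 5210, 7488 and 9117 CPM untreated and 4435, 8445 and 12715 CPM with insulin (0.12 ± 0.15, and -0.17 without the 6).

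**Figure D3:**
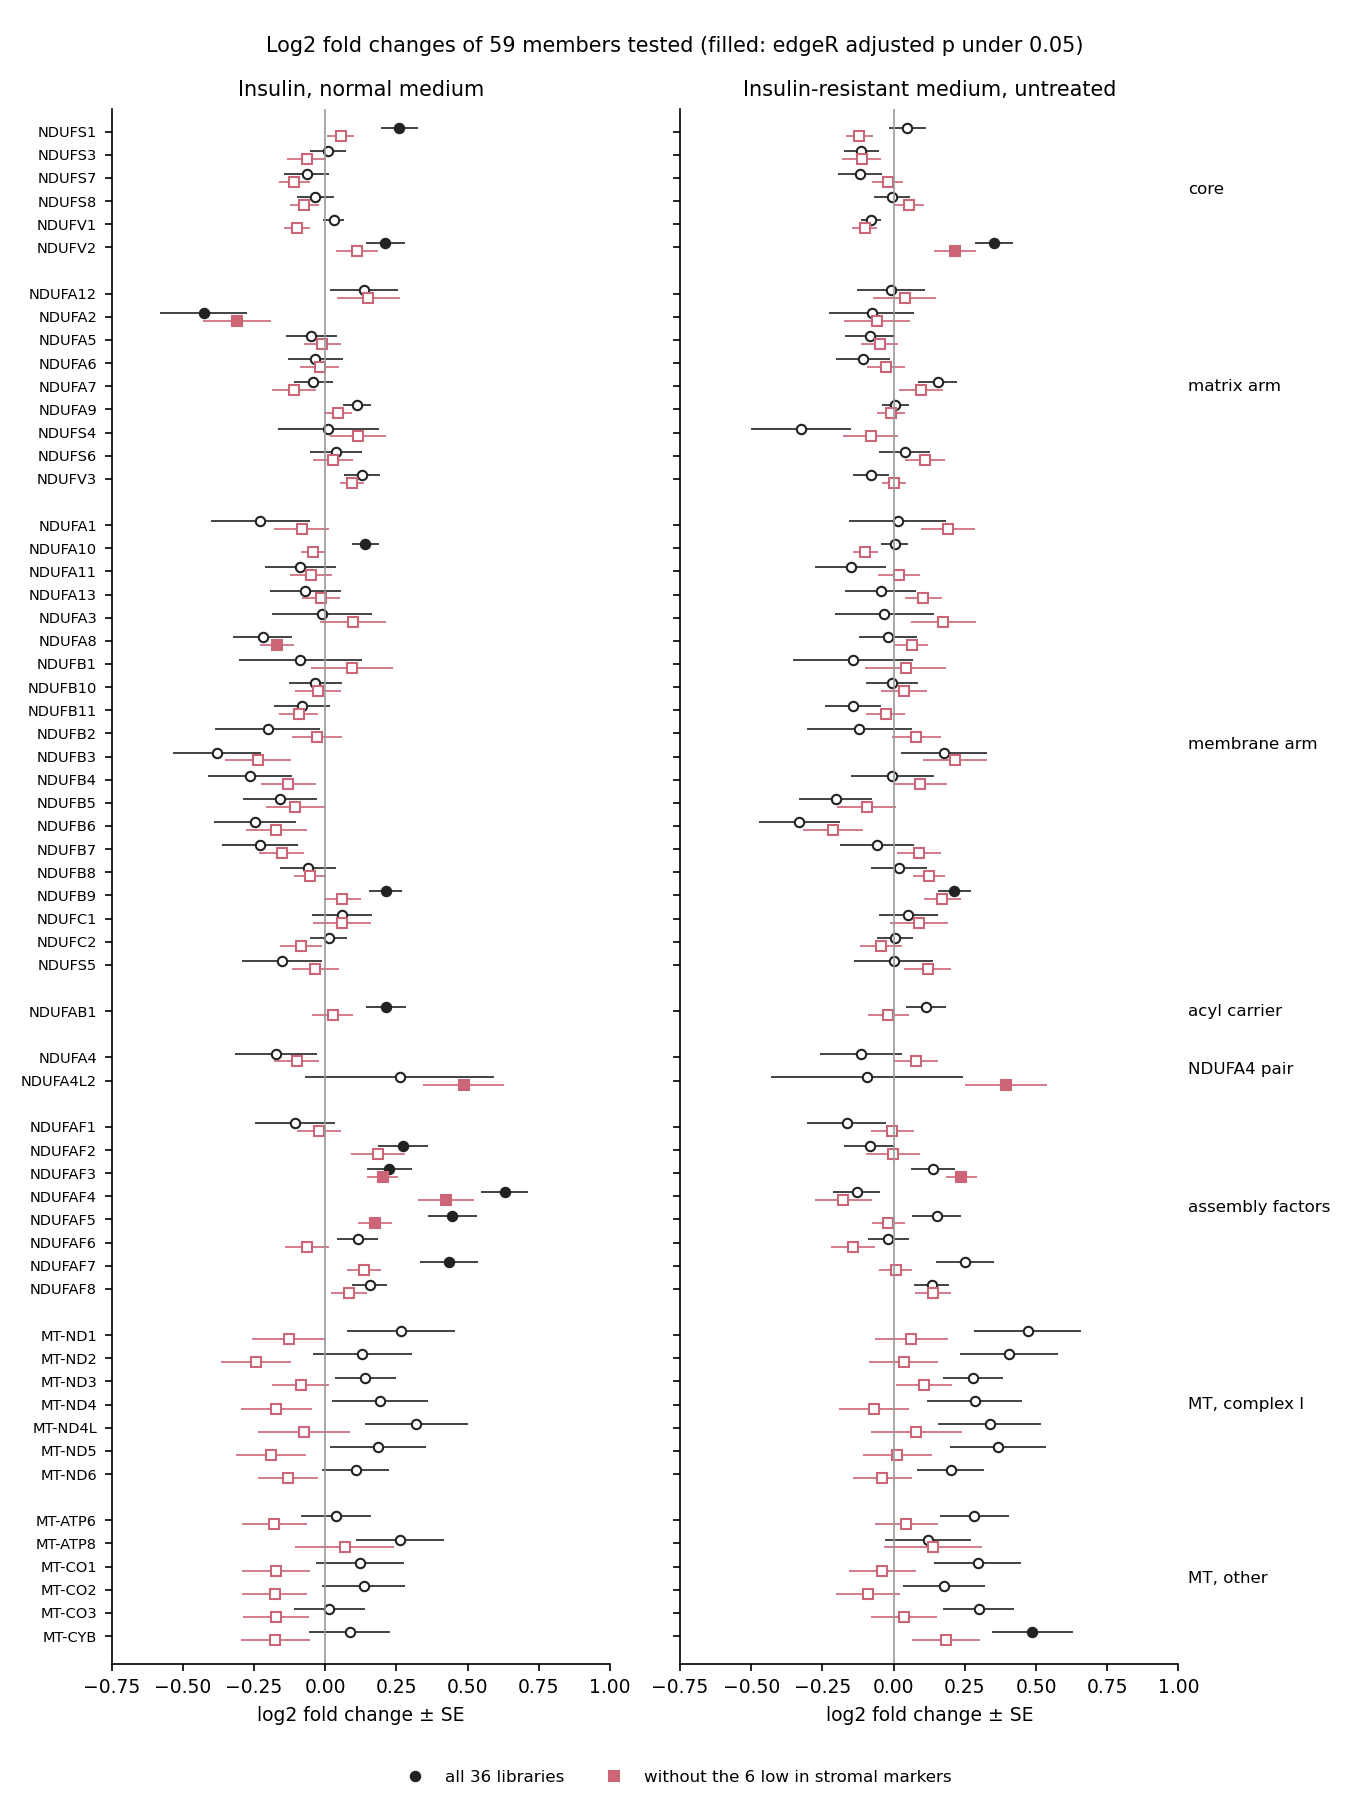
Log2 fold changes ± SE (x axis) of 59 of the 60 members tested for insulin in normal medium (left) and for insulin-resistant medium in untreated cells (right), by role, from all 36 libraries (circles) and without the 6 low in stromal markers (squares); filled symbols have an edgeR adjusted p under 0.05. The assembly factors NDUFAF4 (0.63) and NDUFAF5 (0.45) are filled in both fits on the left, and MT-CYB (0.49) is the one mitochondrial mRNA filled on the right.

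**Figure D4:**
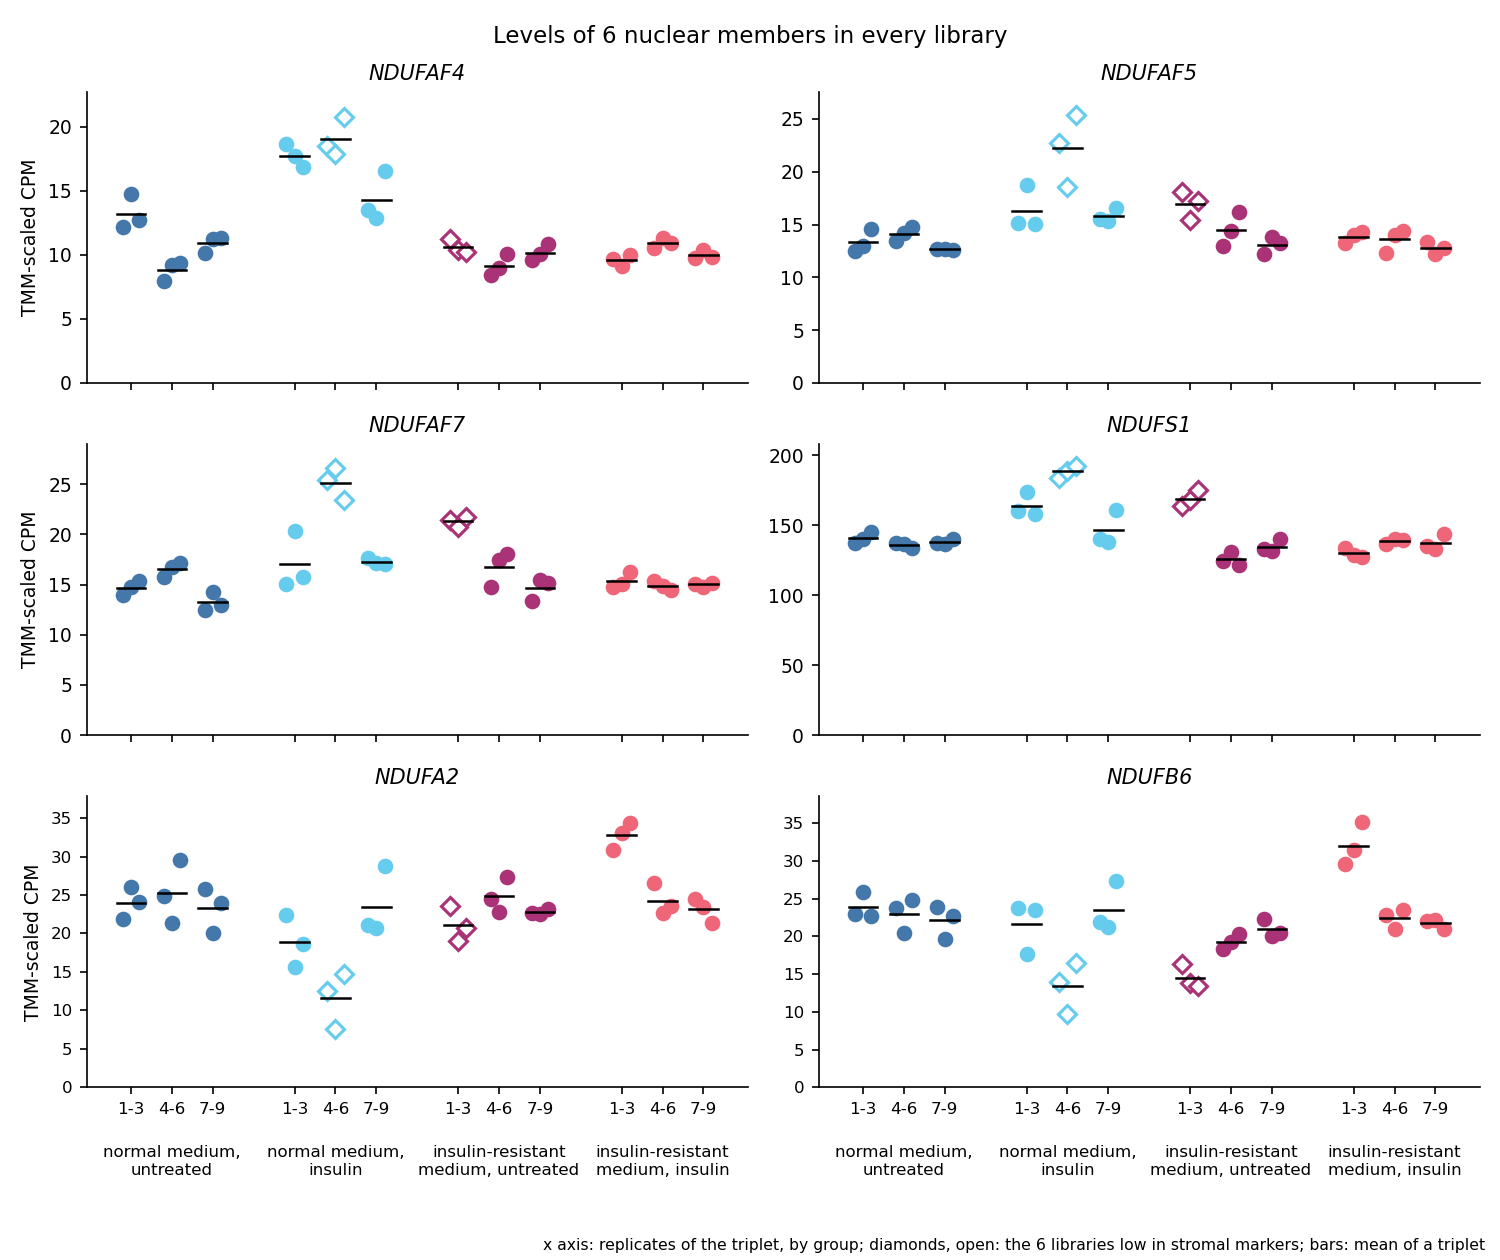
TMM-scaled CPM (y axis) of 6 nuclear members in each of 36 libraries, by group and triplet, with triplet means as bars; open diamonds mark the libraries low in stromal markers. NDUFAF4 is higher with insulin in each triplet in normal medium, whereas NDUFAF7 and NDUFS1 reach their highest values, 26.64 and 192 CPM, in the open diamonds.

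In insulin-resistant medium, insulin changed no member by the test used. edgeR called 0 of 47 nuclear members and 0 of 13 mitochondrial mRNAs, and the background was 0% in either direction, since 0 of 17983 genes were called. At an unadjusted p under 0.05 there were 11 nuclear members and 1 mitochondrial mRNA, and DESeq2 called 0 members. Over all genes, 4490 of 17983 reached that unadjusted p and 9282 lay above 0. Of the nuclear members 37 of 47 lay above 0, with a median of 0.19 beside 0.01 over all genes, and 12 of 13 mitochondrial mRNAs lay below 0, with a median of -0.16. All 13 lay above 0 without the 6 libraries, with a median of 0.13, and 0 were called. The count was not stable to the choice of libraries in the fit. With only the 2 resistant groups, 21 nuclear members were called higher and 2 mitochondrial mRNAs were called. The share of all genes called in that fit is not given here, so these counts cannot be set against a background. NDUFAF4 was at 8.41, 10.1 and 11.2 CPM untreated and 9.13, 9.95 and 11.3 CPM with insulin in this medium, nearly the same ranges (-0.08 ± 0.08). MT-ATP8, which shares bases with MT-ATP6, had the lowest unadjusted p of the mitochondrial set (0.0204, log2 fold change 0.40).

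The insulin difference varied with the medium for 12 of 47 nuclear members, a smaller share than over all genes. Resistant minus normal medium was above 0 for 6 and below 0 for 6 (interaction term, edgeR adjusted p under 0.05), where 6.22% of all genes were above and 23.5% below (29.8% in either direction). With DESeq2 size factors the split was 13 above and 4 below, and the shares of all genes in that fit are not given here. Without the 6 libraries the split was 3 above (NDUFA2 and NDUFB6 among them) and 2 below (NDUFAF4 and NDUFA4L2). In that fit 12.4% of genes were above and 9.37% below. NDUFAF4, NDUFAF5, NDUFAF7 and NDUFS1 were the 4 below 0 with DESeq2 size factors. The 4 comparisons share libraries, so the values are set side by side and not as separate evidence. NDUFAF4 had -0.71 (edgeR adjusted p = 3.47e-05), with changes of 0.63 in normal and -0.08 in resistant medium, and it kept the call without the 6 libraries (-0.49, edgeR adjusted p = 0.0157) but not with triplets summed (-0.51, edgeR adjusted p = 0.358). NDUFAF7 (-0.62, edgeR adjusted p = 0.0015), NDUFAF5 (-0.59, edgeR adjusted p = 0.000468) and NDUFS1 (-0.38, edgeR adjusted p = 0.00216) came to -0.07, -0.14 and -0.02 without the 6 libraries.

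The members above 0 were mostly membrane-arm subunits, with 5 of 20 above and 1 below. NDUFB6 was at 19.7, 23.0 and 26.0 CPM untreated and 9.66, 21.2 and 27.4 CPM with insulin in normal medium, and at 13.5, 19.3 and 22.4 CPM and 20.9, 22.8 and 35.1 CPM in insulin-resistant medium. The low ends of both middle groups were the 6 libraries low in stromal markers (9.66 to 16.4 CPM), which lay below all of the other 30. NDUFB6 had 0.71 (edgeR adjusted p = 0.00891), and 0.46 without the 6 (edgeR adjusted p = 0.0319). NDUFA2 had 0.65 (edgeR adjusted p = 0.0232), and 0.48 without the 6 (edgeR adjusted p = 0.0429). With triplets summed, NDUFB6 and NDUFA2 missed the threshold (edgeR adjusted p = 0.325 and 0.362). NDUFB3 (0.58), NDUFB7 (0.53), NDUFB5 (0.48) and NDUFA8 (0.40) passed the edgeR threshold with all libraries and had 0.37, 0.24, 0.27 and 0.21 without the 6. NDUFAB1 (-0.28) and NDUFA10 (-0.18) had 0.05 and 0.09 without the 6, a change of direction.

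In untreated cells, insulin-resistant medium was followed by higher NDUFV2, NDUFB9 and MT-CYB in the fit over single libraries. With each triplet summed to 1 sample, none of them passed the threshold (edgeR adjusted p = 0.149, 0.366 and 0.499). Of 47 nuclear members 2 were higher and 0 lower, where 13.3% of all genes were higher and 8.62% lower, and 1 of 13 mitochondrial mRNAs was higher. For the count of 0 lower, an unadjusted p under 0.05 was reached by 7 nuclear members in either direction, and DESeq2 called 0 lower. Over all genes, 5884 of 17983 reached that unadjusted p. Without the 6 libraries 3 nuclear members (NDUFV2, NDUFAF3 and NDUFA4L2) were higher and 0 lower by edgeR, where 10.7% of genes were higher and 16% lower. NDUFV2 was at 59.5, 63.0 and 73.5 CPM in normal medium and 69.5, 79.6 and 98.9 CPM in insulin-resistant medium, a small overlap. It rose by 0.35 ± 0.07 (edgeR adjusted p = 0.000166), and by 0.21 without the 6 libraries (edgeR adjusted p = 0.0285). NDUFB9, a membrane-arm accessory subunit, was at 58.6, 66.7 and 77.4 CPM and 73.1, 77.6 and 89.2 CPM, and rose by 0.21 ± 0.06 (edgeR adjusted p = 0.00745), missing the threshold without the 6 libraries (0.17, edgeR adjusted p = 0.0525). Of the key members, NDUFA4, now assigned to cytochrome c oxidase, had -0.11 ± 0.14 and NDUFA4L2 had -0.09 ± 0.34. NDUFA4L2 had 0.39 without the 6 libraries (edgeR adjusted p = 0.0418).

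All 13 mitochondrial mRNAs lay above 0 in this comparison, with a median of 0.30 beside -0.04 over all genes, and 7 had an unadjusted p under 0.05. Over all genes, 8107 of 17983 lay above 0 and 5884 reached that unadjusted p. Without the 6 libraries 9 of 13 lay above 0, with a median of 0.04, and 0 had an unadjusted p under 0.05. MT-CYB (chrM:14747-15887) was at 743, 1080.2 and 1252 CPM in normal medium and 1059, 1433 and 2000.5 CPM in insulin-resistant medium. The ranges overlapped, and the highest values were those of replicates 1 to 3, which are low in stromal markers. MT-CYB rose by 0.49 ± 0.14 (edgeR adjusted p = 0.0121), and by 0.18 with no call without the 6 libraries (edgeR adjusted p = 0.266). MT-ND1 (0.47, edgeR adjusted p = 0.0713) and MT-ND3 (0.28, edgeR adjusted p = 0.0557) missed the threshold, and had 0.06 and 0.10 without the 6 libraries.

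**Figure D5:**
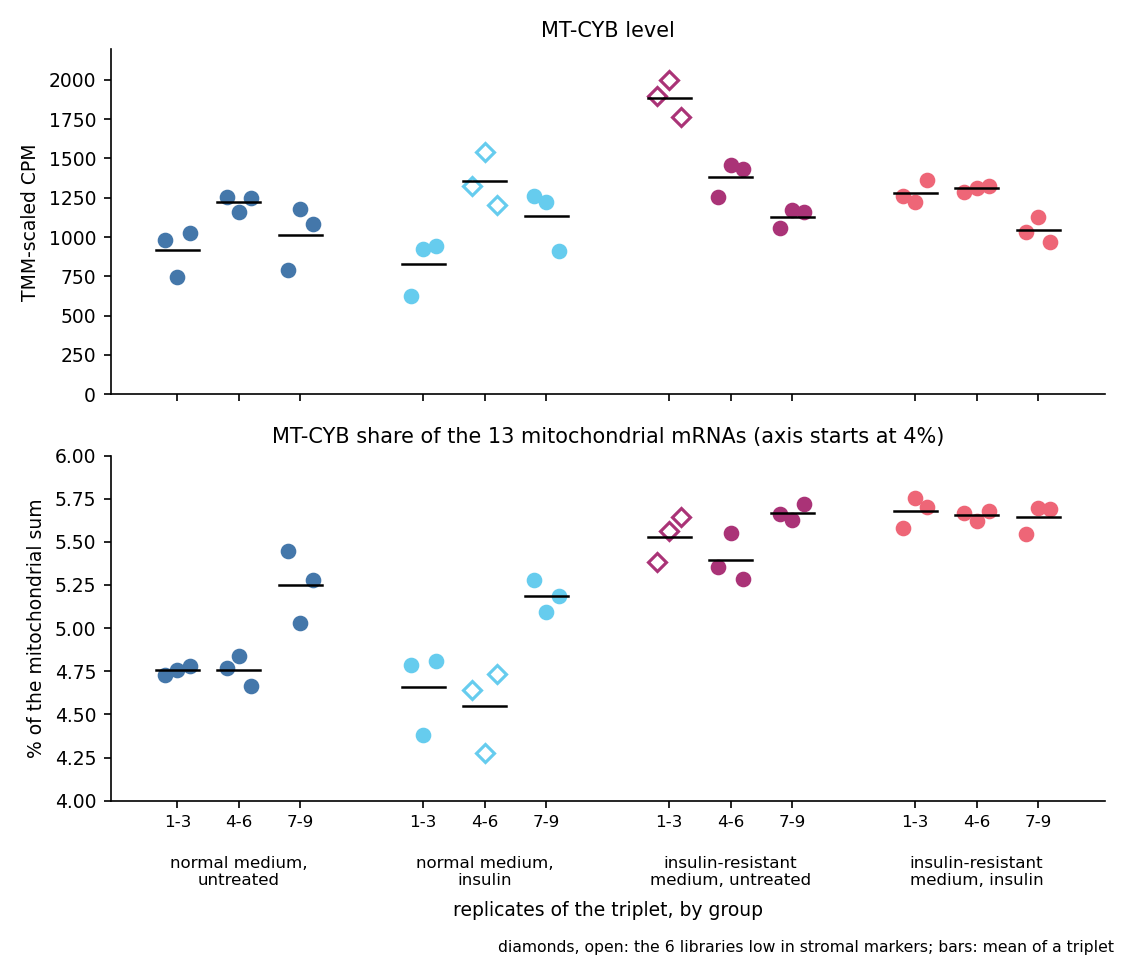
MT-CYB in each of 36 libraries by group and triplet, as TMM-scaled CPM (top) and as percent of the summed counts of the 13 mitochondrial mRNAs (bottom, axis from 4%), with triplet means as bars and open diamonds for the 6 libraries low in stromal markers. With insulin, the share is 4.28% to 5.28% in normal medium and 5.54% to 5.75% in insulin-resistant medium.

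Within the mitochondrial mRNAs, the share of MT-CYB was higher in insulin-resistant medium. As a percent of the mitochondrial sum, which cancels the library's mitochondrial content, MT-CYB had 4.66%, 4.78% and 5.45% (lowest, median, highest) in untreated cells in normal medium. In insulin-resistant medium it had 5.28%, 5.56% and 5.72%, a small overlap. With insulin it had 4.28%, 4.79% and 5.28% in normal and 5.54%, 5.68% and 5.75% in insulin-resistant medium, with no overlap. Without the 6 libraries, the group means in normal medium were 4.92% in untreated and 4.92% in insulin-stimulated cells, and those in insulin-resistant medium were 5.53% and 5.66%. In untreated cells the mean was higher in insulin-resistant medium in each batch, with 5.58% against 5.00% (22 April), 5.64% against 5.02% (11 April) and 5.40% against 4.76% (24 May). Other shares differed as much or more in percentage points. With insulin, the mean share of MT-ND4 was 14.3% in normal and 12.7% in insulin-resistant medium, that of MT-CO1 34.6% and 33.6%, and that of MT-CO3 7.44% and 8.35%, beside 4.80% and 5.66% for MT-CYB. The shares of MT-ND4, MT-CO1 and MT-CO3 overlapped between those groups. These shares were looked at after their values were seen and carry no test. MT-CO1 held 32.68% to 36.003% of the mitochondrial sum in all libraries, and MT-ND6 held 1.10% to 1.58%.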

How the data were processed

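The deposited table holds the authors' expected counts (fractional read estimates by Ensembl gene) for 36 poly-A, strand-specific libraries, per the labels' protocols. STAR, Salmon and the build GRCh37 were used by the authors, per the submitters' processing notes. Their versions and settings and the gene annotation were not given in the sources used here. Counts were rounded to whole numbers: 15.5% of all values were not exactly whole, and 28.0% of the nuclear and 34.2% of the mitochondrial members' values lay over 0.01 from a whole number. Totals were 26.6M to 116.8M counts per library (median 64.6M), so low counts limited only the lowest member. Intervals were not computed from single counts. Symbols came from a GRCh38 annotation by Ensembl identifier, for 51994 genes (90.0%).

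Groups were read from the titles. Genes passing filterByExpr (17983) were tested in 1 fit of all libraries with edgeR 4.0.16 in R 4.3.3 (TMM, quasi-likelihood F-test, group plus batch date, Benjamini-Hochberg adjusted p under 0.05). Levels are TMM-scaled CPM. The batches held 4, 5, 4 and 3 libraries of the 4 groups (22 April; untreated and insulin in normal medium, then in insulin-resistant medium), 2, 2, 2 and 6 (11 April) and 3, 2, 3 and 0 (24 May). The fit was tested on simulated data. No 2 libraries of a group agreed within sampling noise (lowest chi-square per gene 4.2 over 144 pairs). Reads of nuclear copies of mitochondrial genes came to 0.422% to 0.799% of the mitochondrial sum, and NDUF pseudogenes to 0.11% to 0.296% of the nuclear sum.

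The members and lists were chosen with earlier results of these data known. Genes were named by rule: all 13 mitochondrial mRNAs, up to 4 higher and 4 lower nuclear members per comparison by adjusted p, the key members NDUFV1, NDUFS1, NDUFA4, NDUFA4L2, NDUFAB1 and NDUFAF4, up to 3 genes per list, and the highest and lowest in a description of levels; the other members called are named as well, chosen after their values were seen. Results of 1 gene are not reported here. Alternatives were DESeq2 1.42.0, other scalings, filters, fits, batches and left-out libraries. Of 291 list entries 290 were found, and 40 of 48 nuclear members had a RefSeq promoter.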

Additional observations from a re-analysis of the deposited data

Results flagged for a closer look

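Among 140 sets of 9 libraries (32 members, both sums and their ratio, in each group), 4 held a library far from the others, where chance gives about 1 in 20. In untreated cells in normal medium, replicate 6 had the highest NDUFAB1 (57.78 CPM, next 48.93) and NDUFV1 (100.2 CPM, next 90.01). With insulin in insulin-resistant medium, replicate 9 had the lowest MT-ND3 (248.9 CPM, next 310.7) and MT-ND4L (146.3 CPM, next 206.0).

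The insulin difference in resistant minus normal medium passed the edgeR interaction test for 12 members, where 29.8% of all genes passed. Below 0 were NDUFAF4 (-0.71), NDUFAF7 (-0.62), NDUFAF5 (-0.59), NDUFS1 (-0.38), NDUFAB1 (-0.28) and NDUFA10 (-0.18). Above 0 were NDUFB6 (0.71), NDUFA2 (0.65), NDUFB3 (0.58), NDUFB7 (0.53), NDUFB5 (0.48) and NDUFA8 (0.40). Of these, NDUFAF4, NDUFB6 and NDUFA2 kept the call without the 6 libraries low in stromal markers, at -0.49, 0.46 and 0.48.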

How the results depend on the processing

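Counts are nuclear members higher and lower unless named. Shares of all genes called are given above for the main fit and the fit without the 6 libraries, and not for the other settings. Insulin in normal medium (10 and 1 with all settings as reported) gave 4 and 4 with DESeq2, with its size factors, with averaged TMM factors and with mitochondrial rows removed, 3 and 4 with no filter, 4 and 2 with only the groups compared, 4 and 3 without the 6 libraries low in stromal markers, 0 and 0 with triplets summed and within the 22 April or 11 April batch, and 5 and 9 within 24 May, a batch setting added after seeing the data. Leaving out 1 library gave 2 to 11 higher and 1 to 10 lower. In insulin-resistant medium (0 and 0) there were 2 higher with no batch term and 21 higher with 2 mitochondrial mRNAs with only the groups compared. For the medium in untreated cells (2 and 0, 1 mitochondrial) there were 0 higher and 0 mitochondrial with triplets summed and within 22 April or 11 April, 1 higher and 0 mitochondrial within 24 May, 0 mitochondrial without the 6 libraries, and 1 lower with only the groups compared; leaving out 1 library gave 0 to 1 lower and 0 to 4 mitochondrial mRNAs. For the difference of the insulin effects (6 and 6) there were 16 higher with DESeq2, 13 with its size factors or averaged TMM factors, 12 with mitochondrial rows removed, 10 with no filter (3 lower), 3 without the 6 libraries (2 lower) and 0 and 0 with triplets summed and within 22 April or 11 April; leaving out 1 library gave 4 to 21 higher, 3 to 7 lower and 0 to 1 mitochondrial mRNA. Where fewer libraries entered the fit, it had fewer degrees of freedom; otherwise the cause was not tested.

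Replicate numbers were not used as pairs in the main fit. Over 54 same-numbered pairs the correlation of deviations ran from -0.827 to 0.754 (median 0.143, 30 over 0.1), beside a median of 0 over other-numbered pairs. These values do not settle whether the libraries were paired. With the replicate block in place of the batch term, insulin gave 2 lower in normal medium and 8 higher in insulin-resistant medium, and the difference gave 11 higher and 1 mitochondrial mRNA.

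The log2 ratio of the sums was 0.73 for the medium within 11 April and 0.03 for the difference without the 6 libraries. Reversals are listed next only for members called in the main fit or in the alternative. Members called in neither, such as the mitochondrial mRNAs with insulin in normal medium, are left out of that list. Directions reversed for NDUFA10 in normal medium (-0.04 without the 6 libraries, -0.01 within 22 April, -0.00 to 0.16 over fits that left out 1 library, the lowest without normal-medium insulin replicate 6), NDUFB9 (-0.01 within 22 April) and NDUFV1 (-0.11 without untreated replicate 7 or 8 or insulin replicate 6, up to 0.04 without another library), for NDUFA4L2 without the 6 libraries (medium 0.39, difference -0.69), and for NDUFA10 (0.09) and NDUFAB1 (0.05) in the difference without the 6. Low counts limited only the lowest member, NDUFC2-KCTD14.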

Other observations

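With insulin in normal medium, some genes that express and copy the mitochondrial genome were higher. Of 24 genes of mitochondrial transcription and RNA processing, 15 were higher and 1 lower, and 12 and 1 without the 6 libraries low in stromal markers. SUPV3L1, the helicase of the mitochondrial RNA degradosome, rose by 0.84 (edgeR adjusted p = 1.03e-10) and by 0.57 without the 6. TFB2M, which opens mitochondrial promoters, rose by 0.48 (edgeR adjusted p = 1.67e-08, 0.32 without the 6), and PDE12, which removes poly-A tails in mitochondria, by 0.52 (edgeR adjusted p = 2.23e-08, 0.30 without the 6). Of 7 genes of mitochondrial DNA replication, 5 were higher and 0 lower, and 3 and 1 without the 6. RNASEH1, which removes RNA primers, rose by 0.77 and TWNK, the mitochondrial DNA helicase, by 0.76, and both passed edgeR without the 6 libraries as well (0.53 and 0.43). Of 8 regulators of mitochondrial biogenesis, 5 were higher and 0 lower, among them the coactivator PPRC1 (0.80), the receptor ESRRA (0.64) and GABPB1 (0.62), and 4 were higher and 1 lower without the 6. These lists were drawn up with earlier results of these data known, and 24.9% of all genes were higher in this comparison.

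Of 76 mitochondrial ribosomal proteins 44 were higher and 1 lower with insulin in normal medium, 29 and 3 with DESeq2, and 13 and 4 without the 6 libraries. Over all genes 24.9% were higher and 10.2% lower, and 15.4% and 18.1% without the 6. MRPS30 (0.76) and MRPL58 (0.54) led the list by adjusted p and kept the edgeR call without the 6 (0.48 and 0.34). For the difference of the insulin effects, 28 of the 76 were below 0 and 2 above, and 1 below and 5 above without the 6 libraries. Over all genes the shares turned in the same way, from 6.22% above and 23.5% below to 12.4% above and 9.37% below.

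In untreated cells, insulin-resistant medium was followed by opposite changes in a pair of related coactivators. PPARGC1A, known for driving mitochondrial biogenesis and fasting programmes in liver, fell by 1.27 (edgeR adjusted p = 9.8e-06), and by 1.64 without the 6 libraries. PPARGC1B rose by 1.12 (edgeR adjusted p = 5.16e-05), and by 0.67 without the 6. NRF1, whose motif was searched in the member promoters, fell by 0.23 (edgeR adjusted p = 0.00082, -0.30 without the 6). MTERF4, which acts in mitochondrial ribosome assembly, fell by 0.31 (-0.38 without the 6), while TFB1M, a mitochondrial rRNA methyltransferase, rose by 0.61 (edgeR adjusted p = 0.000369, 0.30 without the 6). ECSIT, a complex I assembly factor outside the NDUFAF series, fell by 0.31 (edgeR adjusted p = 1.37e-05, -0.33 without the 6).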
